A study of Mus musculus with 7 samples.

Results

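The cells described here are intermediate progenitors of the embryonic mouse cortex, picked from single-cell RNA profiles by the transcript of the T-box transcription factor Eomes (also called Tbr2). Of 23005 cell barcodes kept from 7 libraries, 481 met the rule. A member held at least 1 Eomes unique molecular identifier (UMI, 1 counted transcript) and at least 3 UMIs over Eomes, Neurog2, Mfng, Btbd17 and Rhbdl3. It held at most 2 UMIs over the 6 cycling genes Top2a, Mki67, Cenpe, Tpx2, Ccna2 and Kif11, and none of Gad1, Gad2 and Reln. Because these 14 genes chose the members, their levels are a description of the choice, and no comparison of the members with other cells was tested.

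Intermediate progenitors arise from radial glia at the ventricle, move to the subventricular zone, and divide there to give rise to glutamatergic neurons of the cortex. Eomes marks them; it is switched on after the proneural factor Neurog2 and switched off as daughter cells become migrating neurons. They therefore stand between cells that carry radial glial transcripts and cells that carry transcripts of young neurons.

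All 7 embryos came from 1 litter, were collected at E18.5 and carried floxed alleles of Ash1l, the gene of a histone H3 lysine methyltransferase. The 4 mutants (embryos 10, 11, 12 and 17; Emx1CreERT2;Ash1lfl/fl) also carried a tamoxifen-dependent Cre at Emx1, a gene of dorsal telencephalic progenitors, while the 3 controls (embryos 14, 15 and 16; Ash1lfl/fl) had no Cre. The dam was given tamoxifen at 100 mg/kg at E10.5, so both groups were exposed to it. Each embryo gave 1 Seq-Well library, a method that pairs cells with barcoded beads in small wells. The labels do not say which bases of Ash1l lie between the loxP sites.

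The libraries held 7083225 to 11859209 UMIs, and 2114 to 4285 barcodes per embryo were kept (at least 500 detected genes, at most 10% mitochondrial UMIs). Members numbered 61, 83 and 84 in controls 14, 15 and 16, and 58, 67, 72 and 56 in mutants 10, 11, 12 and 17. They held 164734 to 319246 UMIs per embryo, 1649145 in all. A total of 24 kept barcode sequences occurred in more than 1 library, and 0 member barcodes did. Every pair of libraries differed by more than sampling noise, so none is a repeat deposit.

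The rule was a threshold on sparse counts. Of 1586 kept barcodes with Eomes, 943 had fewer than 3 UMIs over the 5 markers. Just inside the threshold, 144 members had a sum of 3 (median depth 1699 UMIs). Just outside it, 237 barcodes had a sum of 2 (median depth 1425 UMIs). Another 230 members had 5 or more (median depth 3461 UMIs), so the rule favoured deeply captured cells, and the members' median depth was 1.51 to 2.22 times that of the other kept barcodes within each embryo. The Gad and Reln condition removed 67 barcodes and the cycling condition 66; 29 others failed both. Eomes was also read in cells that should lack it. Of 870 barcodes with at least 2 UMIs of the interneuron genes Gad1 and Gad2, 38 (4.37%, exact 95% interval 3.11% to 5.95%) held an Eomes UMI and 20 also reached a marker sum of 3, at a median depth of 2072 UMIs against 2408 in the members. The level of Eomes was 913 CPM in the members and 33.7 CPM in those Gad barcodes (CPM, UMIs of a gene scaled to a common total for the same cells).

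Besides Eomes, Mfng was detected in 265 members (55.1%), Neurog2 in 259 (53.8%), Btbd17 in 155 (32.2%) and Rhbdl3 in 101 (21.0%). Mfng encodes a glycosyltransferase that modifies Notch receptors. Summed over members, the markers ran from 913 CPM for Eomes to 87.3 CPM for Rhbdl3. In the cycling Eomes barcodes, which met the other conditions but held 3 or more cycling UMIs (66 barcodes), Eomes was 651 CPM, Mki67 1290 CPM and Top2a 1396 CPM. The members had 17.0 CPM of Mki67 and 6.06 CPM of Top2a, and 430 of 481 held no UMI of the 6 cycling genes.

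Outside the rule's genes, the name of the cells could be checked against other genes of the lineage. Insm1, a zinc-finger factor that promotes the formation of basal progenitors, was 172 CPM in the members and 77.7 in all other kept barcodes (median log2 ratio 1.17 over embryos, higher in 7 of 7). Neurod1, a basic helix-loop-helix factor downstream of Neurog2, was 179 against 67.5 CPM (log2 ratio 1.16, higher in 7 of 7). Its relative Neurod4 was low in both, at 32.1 against 2.87 CPM (log2 ratio 2.12, higher in 7 of 7). Hes6, an inhibitor of Hes1 activity that promotes neurogenesis, was 494 against 237 CPM (log2 ratio 0.95, higher in 7 of 7), and Tfap2c, an AP-2 factor, was 67.3 against 14.9 CPM (higher in 7 of 7). Tfap2c was 75.8 CPM in the radial glia rule barcodes described below, so it does not set the members apart from those. Insm1, Neurod1, Neurod4 and Hes6 were lower there than in the members. Progenitor transcription factors of high level in the members were Tcf4 (1567 CPM against 1104 in the rest), Sox4 (1385 against 1305) and Zbtb18 (561 against 602), and of these 3 Tcf4 alone was higher in 7 of 7 embryos. Of the list of 29 such factors, 20 were at 100 CPM or more, 6 of them only in the members and 1 only in the rest. Of these 20, 9 were higher and 2 lower in the members in every embryo, where all genes of that level gave 18.2% and 16.8%. The 2 lower ones were Bcl11a (364 against 458 CPM), a zinc-finger factor of cortical neurons, and Cux2 (52.1 against 116 CPM). Id2, an inhibitor of basic helix-loop-helix factors, was 168 against 201 CPM and lower in 5 of 7. Log2 ratios between cell sets were taken on CPM plus 5.

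Most marker lists of other cell types summed to less in the members than in the rest. The 10 microglial genes summed to 1.82 CPM in the members, all of it 2 UMIs of C1qa and 1 of Cx3cr1, and the other 8, among them C1qb, C1qc, Csf1r and Trem2, were at 0. The 8 genes of meninges and choroid plexus summed to 5.46 against 139 CPM, with 4 at 0, and the 10 endothelial and pericyte genes to 29.1 against 83.8 CPM, with 1 at 0. The interneuron and ventral genes outside the rule summed to 334 against 555 CPM, those of oligodendrocyte precursors to 87.3 against 131 and those of Cajal-Retzius cells to 77.0 against 160. Prox1, of the interneuron and ventral list, went the other way, at 111 against 36.3 CPM (higher in 7 of 7 embryos). It was the only gene of that list to reach 100 CPM, and it did so only in the members. The rule took barcodes with Gad1, Gad2 or Reln out of the members and left them in the rest. The lower interneuron and Cajal-Retzius sums therefore follow in part from the choice and are no separate check of it. The striatal list was higher, at 563 against 463 CPM, of which Meis2, a homeobox factor, gave 467 and 317. The red blood cell genes were also higher in sum, at 2091 against 1871 CPM, although only 12 members (2.49%) held 10 or more haemoglobin UMIs, against 5.06% of the other barcodes. Per barcode, at least 3 UMIs of a list were found in 14.6% of members and 12.7% of the rest for interneuron and ventral genes, in 3.12% and 2.40% for oligodendrocyte precursor genes, and in 2.29% and 2.22% for Cajal-Retzius genes. For the upper layer list it was 60.7% against 54.4%, and for the deep layer list 51.4% against 31.6%, genes that young cortical neurons also express. The members were deeper than the rest, and these shares were not thinned to a common depth. No doublet caller was run.

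Among 2520 genes at 100 CPM or more in the members or in the rest, and outside the rule, 459 (18.2%) were higher and 424 (16.8%) lower in the members than in the rest in all 7 embryos. The median log2 ratio over these genes was 0.0403. At least a 2-fold difference in every embryo was seen upward for 25 genes and downward for 1. A gene could enter these counts through its level in the members alone or in the rest alone, which favours a ratio toward that set. The gene with the highest ratio was Mfap4, a microfibril-associated glycoprotein: its level was 161, 121 and 169 CPM in control members and 236, 91.1, 233 and 145 CPM in mutant members, while the rest as a whole had 17.7 CPM (median log2 ratio 2.97, range 2.03 to 3.41). Mfap4 was 15.9 CPM in radial glia rule barcodes and 84.1 CPM in the cycling Eomes barcodes.

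**Figure D1:**
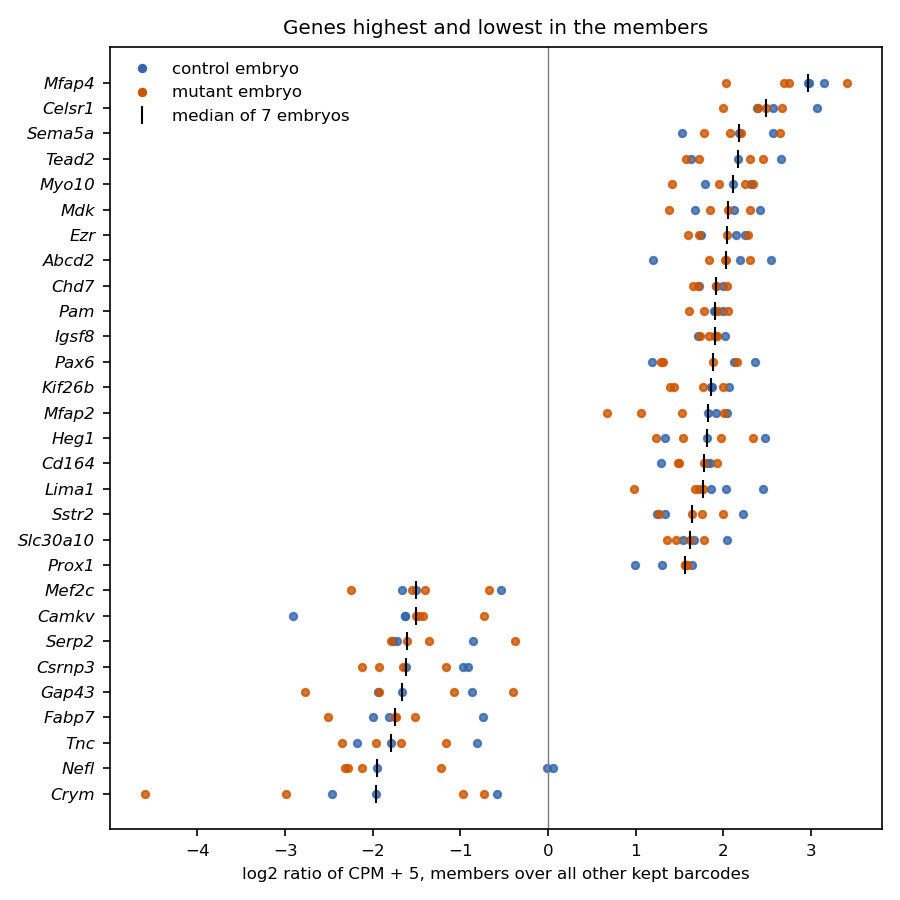
Log2 ratio of CPM plus 5 in the Eomes-positive members over all other kept barcodes (x axis) for the 20 highest and 9 of the 10 lowest genes (y axis); points are embryos, blue for the 3 controls and orange for the 4 mutants, and black bars are medians of 7 embryos. Mfap4 leads at 2.97; all points of the 20 highest genes lie above 0, and those of these 9 lie below 0 except for Nefl, whose highest embryo is at 0.06.

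The other genes of the 20 highest fell into recognisable kinds. Genes of the cell surface and its contacts were Celsr1, a planar polarity cadherin (log2 ratio 2.49), Sema5a, a transmembrane semaphorin (2.18), Igsf8, an immunoglobulin-family membrane protein (1.91), Heg1, a transmembrane receptor (1.82), Cd164, a sialomucin (1.78), and Sstr2, a somatostatin receptor (1.65). Genes of the cytoskeleton and cortex of the cell were Myo10, an unconventional myosin of filopodia (2.11), Ezr, which links actin to the membrane (2.04), Kif26b, a kinesin family member (1.86), and Lima1, an actin-binding protein (1.76). The transcriptional regulators were Tead2, the DNA-binding partner of Yap (2.16), Chd7, a chromatin remodeller (1.92), Pax6, a homeobox factor of radial glia (1.89), and Prox1, a homeobox factor (1.57). Prox1 is also on the interneuron and ventral list. Secreted or secretory proteins were Mdk, the growth factor midkine (2.05), Pam, which amidates peptides (1.91), and Mfap2, a microfibril protein (1.83). Abcd2, a peroxisomal transporter (2.03), and Slc30a10, a manganese exporter (1.62), completed the 20. Each of these was higher in the members in 7 of 7 embryos. Of the 20, only Mdk, Ezr, Pam and Igsf8 also reached 100 CPM in the rest. The others entered through their level in the members, so their higher ratios follow in part from that entry.

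Several were also well above the rest in the radial glia rule barcodes (769 barcodes without Eomes, Neurod2 or Neurod6 and with 3 or more UMIs of Hes1, Hes5, Pax6, Sox9 and Slc1a3). Celsr1 was 352 CPM in the members and 301 in those barcodes, Tead2 212 and 187, Myo10 198 and 223, and Cd164 138 and 138. Others were below the rest there or near it. Sstr2 was 119 CPM in the members, 12.1 in the radial glia rule barcodes and 34.4 in the rest. Igsf8 was 557, 168 and 152 CPM in the same order, and Pam 399, 112 and 103 CPM. In the 4592 migrating neuron rule barcodes (no Eomes, 3 or more UMIs of Neurod2, Neurod6, Unc5d, Rnd2 and Tiam2), all of these were lower than in the members, from 8.85 CPM for Myo10 to 138 CPM for Igsf8.

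The 10 lowest genes included transcripts of mature neurons and of radial glia. Of the neuronal kind, Crym, a thyroid hormone binding protein, had a log2 ratio of −1.96, Nefl, the neurofilament light chain, −1.95, Gap43, a growth cone protein, −1.66, and Mef2c, a transcription factor of maturing neurons, −1.51. Csrnp3, Serp2 and Camkv had −1.62, −1.61 and −1.51. Of the radial glial kind, Tnc, the matrix protein tenascin C, was 104 CPM in the members, 321 in the rest and 3410 in the radial glia rule barcodes. Fabp7, a fatty acid binding protein of radial glia, was 415, 1257 and 12803 CPM in the same sets. Each of these was lower in 7 of 7 embryos except Nefl, which was lower in 6. Crym, Nefl, Csrnp3, Serp2 and Camkv reached 100 CPM only in the rest, so their lower ratios follow in part from that entry.

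For the genes highest in the members, the 250 bases before each RefSeq transcription start (GRCm38.p6) were read for letters that factors of the lineage are known to prefer: CAGATG, an E-box of Neurog and NeuroD factors, the T-box half-site AGGTGTGA, and any E-box CANNTG, of which CAGATG is 1 form. Both strands were searched. RefSeq held 20 such windows for 15 of the 20 genes, and 3 of them (15.0%) held CAGATG, against 14.4% of 32851 mouse windows. For AGGTGTGA it was 0 of 20 against 1.12%, and for CANNTG 40.0% against 66.2%. The windows with CAGATG are shown because they are the matches, beside that of Eomes, which held none of the 3 motifs; capitals mark CAGATG or, read on the other strand, CATCTG.
Eomes, chr9:118477939-118478188, plus strand: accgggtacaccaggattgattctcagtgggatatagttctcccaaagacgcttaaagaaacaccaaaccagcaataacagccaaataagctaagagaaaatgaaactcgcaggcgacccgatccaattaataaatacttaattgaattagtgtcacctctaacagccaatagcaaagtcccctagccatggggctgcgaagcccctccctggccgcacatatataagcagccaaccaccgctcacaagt
Mfap2, chr4:141010174-141010423, plus strand: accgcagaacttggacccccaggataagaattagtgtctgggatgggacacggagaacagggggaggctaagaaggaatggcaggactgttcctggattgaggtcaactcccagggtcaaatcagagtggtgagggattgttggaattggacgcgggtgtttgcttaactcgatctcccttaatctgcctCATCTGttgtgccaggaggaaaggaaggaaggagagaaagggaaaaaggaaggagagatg
Lima1, chr15:99820150-99820399, minus strand: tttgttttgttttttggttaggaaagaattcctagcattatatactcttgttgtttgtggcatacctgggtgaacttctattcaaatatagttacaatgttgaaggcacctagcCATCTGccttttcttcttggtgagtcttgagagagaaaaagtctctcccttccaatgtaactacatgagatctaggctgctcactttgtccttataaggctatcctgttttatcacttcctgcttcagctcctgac
Prox1, chr1:190170828-190171077, minus strand: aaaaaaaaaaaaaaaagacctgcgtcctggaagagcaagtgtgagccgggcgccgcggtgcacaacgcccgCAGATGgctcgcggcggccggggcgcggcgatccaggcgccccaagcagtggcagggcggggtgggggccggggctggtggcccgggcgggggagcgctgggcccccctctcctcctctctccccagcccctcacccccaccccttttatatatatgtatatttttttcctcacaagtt

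Set beside radial glia rule and migrating neuron rule barcodes, the members lay between the 2 sets for some genes that neither rule used. How many genes did so was not counted. Sox2, a progenitor transcription factor, had embryo medians of 367 CPM in radial glia rule barcodes, 152 in members and 13.9 in migrating neuron rule barcodes. Vim, an intermediate filament of radial glia, went from 2999 to 1016 to 120 CPM, and Ccnd2, a D-type cyclin, from 934 to 607 to 80.2 CPM. Each was lower in members than in radial glia rule barcodes, and higher than in migrating neuron rule barcodes, in all 7 embryos. The neuronal transcripts ran the other way. Dcx, a microtubule-associated protein of migrating neurons, had embryo medians of 240, 1073 and 1723 CPM in the same order, and Tubb3, neuronal tubulin, 154, 692 and 1511 CPM. Stmn2, a neuronal stathmin, had 146, 576 and 1844 CPM. For these 3 genes the members lay between the sets in 7 of 7 embryos. Ptprz1, of the radial glia list, did not lie between. Summed over embryos it was 2481 CPM in radial glia rule barcodes, 219 in members and 321 in migrating neuron rule barcodes.

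Other genes were higher in the members than in either of these 2 sets. Neurod1 had embryo medians of 4.16, 146 and 74.6 CPM in the radial glia rule, member and migrating neuron rule barcodes, Insm1 54.0, 163 and 75.8 CPM, and Hes6 129, 490 and 236 CPM. Gadd45g, a growth arrest gene, had 105, 294 and 75.0 CPM, Emx1 56.8, 153 and 78.9 CPM, and Lhx2, a LIM homeobox factor, 256, 417 and 225 CPM. Each of these 6 was higher in the members than in both sets in all 7 embryos. The cycling Eomes barcodes, summed over embryos, had higher levels than the members for Insm1 (303 against 172 CPM), Hes6 (508 against 494) and Lhx2 (420 against 381), and lower ones for Neurod1 (80.4 against 179), Gadd45g (270 against 340) and Emx1 (139 against 161). Pou3f2, a POU factor of upper layer neurons and their progenitors, was above the migrating neuron rule barcodes in 6 of 7.

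**Figure D2:**
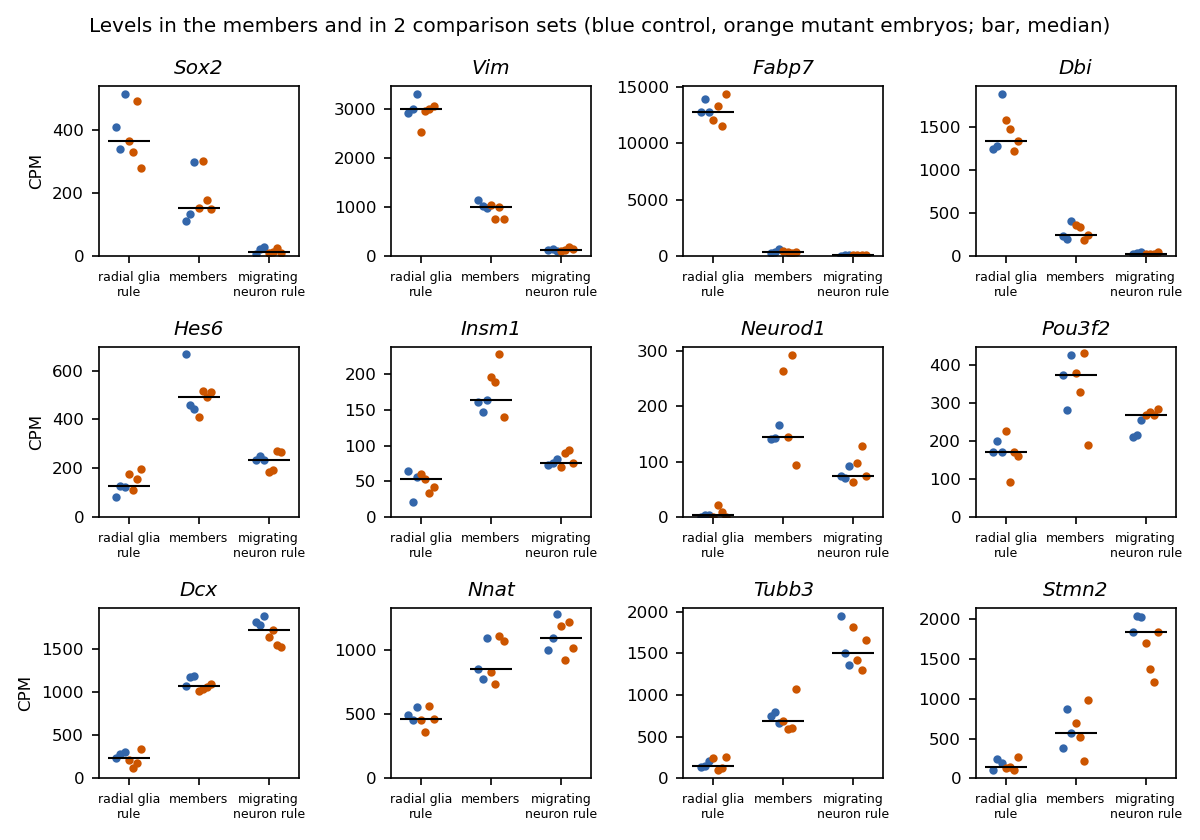
Level in CPM (y axis, from 0) of 12 genes used by neither comparison rule nor the Eomes rule, in radial glia rule, member and migrating neuron rule barcodes (x axis); points are embryos (blue control, orange mutant) and bars their medians. Sox2, Vim, Fabp7 and Dbi fall from left to right, Hes6, Insm1, Neurod1 and Pou3f2 are highest in the middle, and Dcx, Nnat, Tubb3 and Stmn2 rise.

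Of the 14 genes of the cell cycle exit list, 6 were higher and 0 lower in the members than in the rest in every embryo; of the 7 at 100 CPM or more it was 5, where all genes of that level gave 18.2%. Those 5 were Btg2, an antiproliferative factor (log2 ratio 0.93), Gadd45g (1.57), the inhibitor Cdkn1b (0.44), Ccnd2 (1.21) and Sstr2 (1.65). Btg2 and Sstr2 reached 100 CPM only in the members, where they were higher. Ccnd2, though on this list, is a cyclin that promotes progression through G1, and it was 1148 CPM in the cycling Eomes barcodes against 617 in the members. Cdkn1c, another inhibitor, was 159 against 169 CPM. The S phase genes had nearly equal sums, with 1045 CPM in members, 1044 in the rest, 2394 in radial glia rule barcodes and 5110 in cycling Eomes barcodes.

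Notch pathway transcripts were mostly low. Of the ligands, Dll1 was 69.7 CPM in members and 34.9 in the rest (higher in 7 of 7 embryos), and Jag1 38.8 and 19.0 (6 of 7). The receptor Notch1 was 115 CPM in members, 54.1 in the rest and 343 in radial glia rule barcodes, and Notch2 was 45.5, 55.9 and 422. The targets Hes1 and Hes5, which the radial glia rule used, were 10.9 and 24.9 CPM in members and 18.2 and 24.2 CPM in the rest. Hes1 was lower in the members in 6 of 7 embryos and Hes5 in 4 of 7. Numb, an inhibitor of Notch, was 21.2 against 7.11 CPM and higher in 7 of 7. Dner was 80.0 against 163 CPM, Jag2 12.1 against 26.2 CPM and Notch3 3.03 against 8.35 CPM, each lower in 7 of 7. Over the list of 21 genes, 3 were higher and 3 lower in every embryo. Of its 3 genes at 100 CPM or more, 1 was higher (Notch1) and 1 lower (Dner), where all genes of that level gave 18.2% and 16.8%. Notch1 reached that level only in the members and Dner only in the rest.

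Genes of migration and adhesion were more often lower than higher in the members. Rnd2, a small GTPase that Neurog2 is known to induce, was 559 CPM in members against 220 in the rest, and Lrp8, a Reelin receptor, was 408 against 160. Unc5d, a netrin receptor, Nrn1, Epha4 and these 2 were higher in the members in 7 of 7 embryos, with log2 ratios from 0.67 to 1.37. The second Reelin receptor, Vldlr (50.9 against 87.3 CPM), and its adaptor Dab1 (181 against 371 CPM) were lower in 7 of 7, as were Nrp1, Robo1 and Robo2. Over the list, 4 of 22 genes at 100 CPM or more and outside the rule were higher and 14 lower in every embryo, with a median log2 ratio of −0.62, where all genes of that level gave 18.2% higher, 16.8% lower and a median of 0.0403. Of the 22, 1 reached that level only in the members and 0 only in the rest. Of 9 upper layer genes at 100 CPM or more, 2 were higher (Lhx2 and Unc5d) and 5 lower in every embryo, with a median log2 ratio of −0.76. Of these 9, 1 reached that level only in the members and 2 only in the rest. Cux2 (52.1 against 116 CPM) and Gucy1a3 were among the upper layer genes lower in 7 of 7.

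The members were not uniform. The 259 with a Neurog2 UMI (median depth 2739 UMIs) had 4086 CPM over the radial glia list, against 2729 CPM in the 222 without one (median depth 2188 UMIs), and were higher in 7 of 7 embryos. Vim was 1163 against 721 CPM and Pax6 273 against 172 CPM, both higher in 7 of 7. The migrating neuron list was 3011 against 3687 CPM and was higher with Neurog2 in only 1 of 7 embryos. Dcx was 1012 against 1240 CPM, Nnat, a neuronal imprinted gene, 823 against 1061 CPM, and Unc5d 124 against 181 CPM, each lower with Neurog2 in all 7. Members with a marker sum of 5 or more had 4122 CPM over the radial glia list, against 2489 in those with a sum of 3, and were higher in 5 of 7 embryos. The migrating neuron list was 3028 against 3869 CPM and higher in 0 of 7. The radial glia list did not follow the sum throughout, since members with a sum of 4 had 2733 CPM and the barcodes just outside, with a sum of 2, had 3114 CPM. Depth differed in the same direction in both splits, and its part was not tested.

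The first question between genotypes was whether the share of members differed. It was 2.77%, 2.13% and 1.96% of kept barcodes in controls 14, 15 and 16, and 2.74%, 2.12%, 1.94% and 1.54% in mutants 10, 11, 12 and 17. The groups overlapped, with mutant 17 lowest and control 14 highest. The mutant mean was 2.09% ± 0.502 (SD, n = 4) and the control mean 2.29% ± 0.426 (SD, n = 3). Their difference of −0.20 percentage points had a two-sided exact permutation p of 0.457, where 0.0286 is the smallest that the 35 splits of embryos can reach. The sign turned with control 14 left out (+0.0407 points) and with at least 1000 detected genes per barcode (+0.218 points). When every barcode was thinned to 800 UMIs, mutants had a share of 0.590% ± 0.231 and controls one of 0.692% ± 0.232 (p = 0.543, exact permutation); 110 to 552 shallower barcodes per embryo were left out of it. Thinned, mutant 11 was at 0.899%, above controls 15 and 16.

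**Figure D3:**
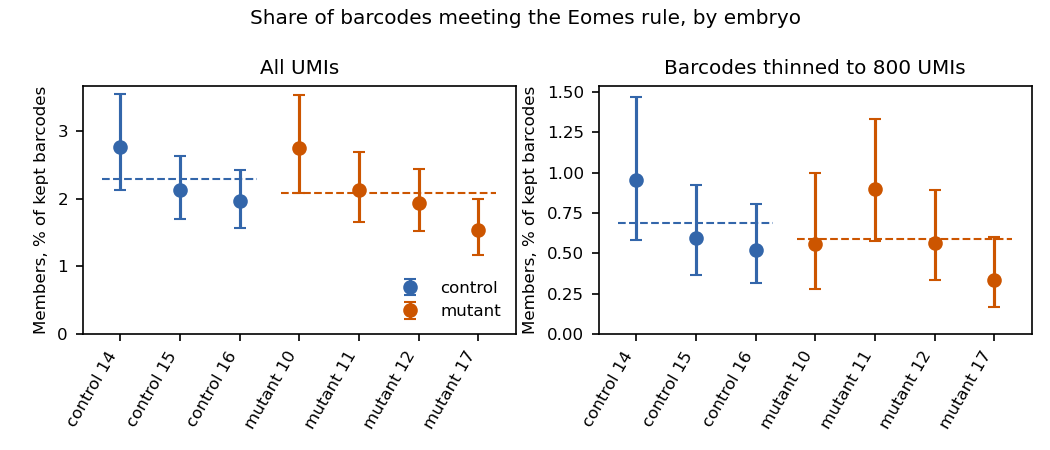
Share of kept barcodes that met the Eomes rule (y axis, percent, from 0) in each embryo (x axis), with all UMIs on the left and after thinning to 800 UMIs on the right; points carry exact 95% binomial intervals, which cover counting error only, and dashed lines are group means. With all UMIs the means are 2.29% in controls (blue) and 2.09% in mutants (orange), and the groups overlap in both panels.

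The targeted gene was measured first. Ash1l was 205, 237 and 223 CPM in the members of controls 14, 15 and 16, and 159, 231, 148 and 112 CPM in those of mutants 10, 11, 12 and 17 (CPM here and below scaled by TMM, edgeR's normalisation between libraries). Mutants 10, 12 and 17 lay below all controls and mutant 11 among them. The log2 fold change of mutants over controls was −0.46 (SE 0.22; edgeR adjusted p = 0.902, and 0.0504 before adjustment). In all other kept barcodes the log2 fold change of Ash1l was −0.38 (SE 0.12; edgeR adjusted p = 0.351), and the change did not differ detectably between the 2 sets (difference −0.12, SE 0.21; edgeR adjusted p = 1.0). Counts outside the deleted part would check nothing about recombination.

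Summed over the members of each embryo, 5880 genes could be tested between mutants and controls, and 0 (0%) passed an adjusted p of 0.05 with edgeR's quasi-likelihood test; DESeq2 also called 0. At an unadjusted p under 0.05 there were 321 genes (5.46%), 176 higher and 145 lower in mutants, and the groups did not overlap in CPM for 374 (6.36%). The median log2 fold change over all tested genes was 0.0051. With 3 controls and 56 to 84 members per embryo, this says that no single gene stood out of the spread between embryos, not that the genotypes had equal levels. Calls appeared under 2 other settings, 3 higher and 5 lower without the filter on low counts and 4 higher and 2 lower without control 14.

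None of the 5 markers passed. Eomes was 865, 961 and 1096 CPM in controls and 882, 1230, 1188 and 921 CPM in mutants, so the groups overlapped (log2 fold change 0.11, SE 0.18; edgeR adjusted p = 0.975). Neurog2 was 379, 419 and 392 CPM in controls and 367, 370, 463 and 336 CPM in mutants (a log2 fold change of −0.05, SE 0.18). The log2 fold change was 0.08 for Mfng, 0.42 for Btbd17 and −0.35 for Rhbdl3. The signs for Neurog2 and Mfng turned under some settings. The rule asked for these markers in both groups alike, so these values cannot show whether marker levels were the same in the genotypes.

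Spr, the sepiapterin reductase of tetrahydrobiopterin synthesis, lies at chr6:85130176-85137766, on the same chromosome as Emx1 at chr6:85187438-85204462, the gene that the Cre is named for (mm10). Its level in members was 49.0, 31.6 and 20.3 CPM in controls and 68.2, 92.6, 107 and 118 CPM in mutants. Every mutant was above every control (log2 fold change 1.51, SE 0.37; edgeR adjusted p = 0.383). The call was therefore not made in the members, while in all other kept barcodes, where 3 of 12852 genes passed (0.0233%; 0.0156% higher and 0.00778% lower), Spr rose (log2 fold change 1.31, SE 0.15; edgeR adjusted p = 0.00224). The difference between these 2 changes was 0.20 (SE 0.39; edgeR adjusted p = 1.0). Esr1, part of whose sequence the tamoxifen-dependent Cre carries, had 10 UMIs in all members: 0, 2 and 0 in controls and 3, 2, 2 and 1 in mutants, too few to be tested. The 2 UMIs of control 15 came from 1 barcode. Emx1 itself had a log2 fold change of 0.0039 (SE 0.24) in the members, with 245, 166 and 135 CPM in controls and 148, 152, 188 and 243 CPM in mutants.

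The smallest p belonged to Hspa1b, a stress-induced Hsp70 chaperone. It was 80.3, 39.5 and 40.6 CPM in controls and 133, 152, 121 and 156 CPM in mutants, without overlap (log2 fold change 1.41, SE 0.30; edgeR adjusted p = 0.238). Hspa1a, its near-identical neighbour on chromosome 17, was 446, 154 and 230 CPM in controls and 189, 331, 282 and 299 CPM in mutants (a log2 fold change of −0.02, SE 0.25). Reads of the 2 copies may have been divided between them, so neither is certain as a single gene. Dcc, the netrin receptor, was 62.4, 67.2 and 30.4 CPM in controls and 125, 106, 154 and 137 CPM in mutants (a log2 fold change of 1.31, SE 0.31; edgeR adjusted p = 0.383). Wdr7, a WD-repeat protein, was 26.8, 19.8 and 37.2 CPM against 83.3, 85.9, 47.0 and 118 CPM (log2 fold change 1.55, SE 0.39; edgeR adjusted p = 0.383). For both genes the mutants lay above all controls.

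In the other direction, Mt2, a metallothionein, was 103, 71.1 and 125 CPM in controls and 53.0, 39.7, 6.71 and 37.3 CPM in mutants (a log2 fold change of −1.44, SE 0.38; edgeR adjusted p = 0.402). Paf1, a subunit of an elongation complex, was 138, 111 and 101 CPM against 30.3, 59.5, 47.0 and 74.7 CPM (log2 fold change −1.19, SE 0.32; edgeR adjusted p = 0.493). Mutants were below all controls for both. Eif1b, a translation initiation factor, had a log2 fold change of −0.74 (edgeR adjusted p = 0.582). Nefl was 35.7, 170 and 173 CPM in controls and 64.4, 26.4, 13.4 and 37.3 CPM in mutants, with overlap at control 14 (log2 fold change −1.71, SE 0.41; edgeR adjusted p = 0.383). The remaining genes among the 10 smallest p were Lars2 (log2 fold change 0.98) and Gm26924 (0.54).

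**Figure D4:**
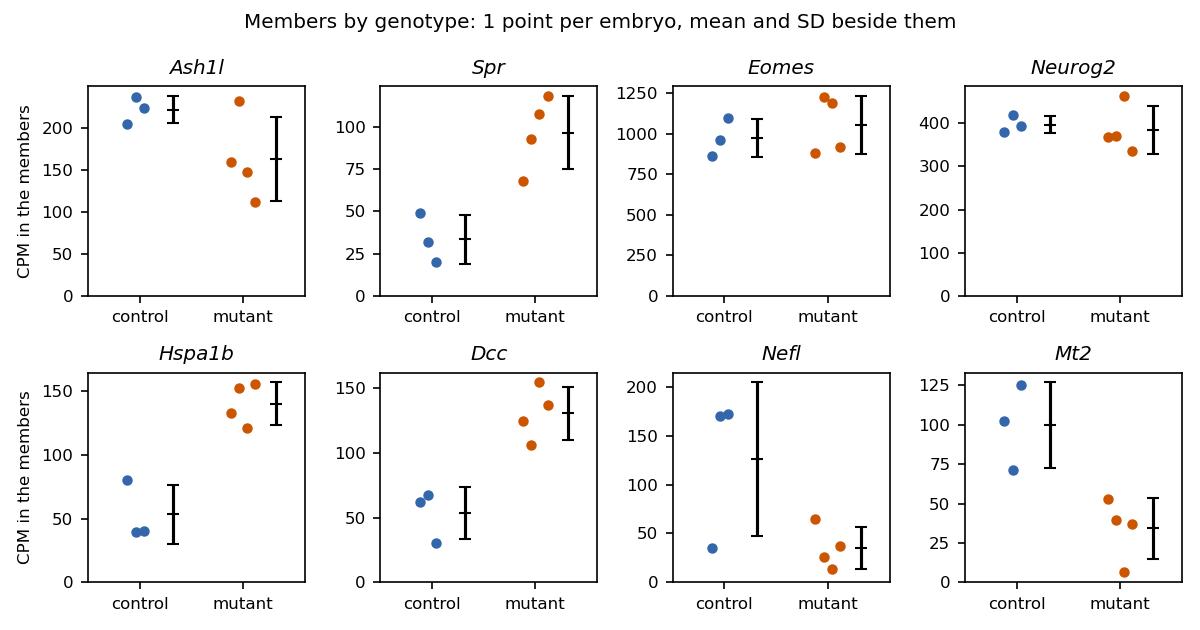
TMM-scaled CPM (y axis, from 0) of 8 genes in the members, by genotype (x axis); each point is an embryo (blue control, orange mutant), and the bars beside them are the mean and SD (n = 3 controls, n = 4 mutants). Spr, Hspa1b and Dcc lie higher in all 4 mutants and Mt2 lower, Ash1l, Eomes, Neurog2 and Nefl overlap, and none of the 8 passes an adjusted p of 0.05. Eomes and Neurog2 are genes of the rule that chose the members.

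Library features moved with genotype. Gm26924, a ribosomal RNA-like locus, took 5.89% to 8.53% of the UMIs of control members and 9.13% to 11.4% of mutant members. The same held for all other kept barcodes, at 6.84% to 8.34% in controls and 9.10% to 11.8% in mutants. Mutant members had a median mitochondrial share of 4.05% ± 0.454 (SD, n = 4), and control members one of 5.07% ± 0.379 (SD, n = 3; p = 0.0571 by a two-sided exact permutation test). Median depth was 2501 ± 874 UMIs in the first and 2792 ± 797 in the second (p = 0.600 by the same exact test). Their part in the differences above was not tested. Without mitochondrial, haemoglobin, Gm26924, Gm10800 and Lars2 counts the test again called 0 genes. That cannot show their part, since it had called 0 with those counts too.

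By list, 0 genes were called in the members, and unadjusted calls were read against the 2.99% of all tested genes that were higher and the 2.47% that were lower. Of all 5880 tested genes, 2908 had a negative log2 fold change. Of the progenitor transcription factors, 8 of 25 had a positive and 17 a negative log2 fold change (median −0.05), and 0 reached an unadjusted p of 0.05. Of the Notch list it was 6 positive and 4 negative (median 0.16), and 0 reached it. Upper layer genes were 1 positive and 11 negative of 12 (median −0.12), and 3 had an unadjusted p under 0.05, among them Mef2c (log2 fold change −0.66) and Lmo4 (−0.59). With an embryo left out, Mef2c ran from −1.18 to −0.17 and Lmo4 from −0.73 to −0.44. Mef2c was detected in 77 of 481 members. Immediate early genes were likewise 1 positive and 11 negative of 12 (median −0.23), with Fos (−0.55), Jun (−0.64) and Klf6 (−0.54) lower and Fosb (0.82) higher at that level. Immediate early transcripts respond to tissue dissociation as well as to activity, and neither was measured here. Their summed level averaged 3613 CPM in control and 2728 in mutant members, and 3391 and 2878 CPM in all other kept barcodes. The upper layer list averaged 1958 and 1596 CPM in the members, and 2559 and 2161 CPM in the other barcodes. Both lists were thus lower in mutants on average in either set of barcodes, and these sums were not tested. For the upper layer list the embryos overlapped in the members, with control 16 at 1666 and mutant 17 at 1856 CPM. For the immediate early list they overlapped in the other barcodes, with control 14 at 3006 and mutant 12 at 3338 CPM. The remaining sums did not overlap.

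Cell cycle exit genes were 3 positive and 6 negative (median −0.22), with Gadd45g (log2 fold change −0.49) and Cdkn1c (−0.81) at an unadjusted p under 0.05. S phase genes were 7 positive and 3 negative (median 0.31), and 0 reached it. Genes that write, read or remove histone H3 methylation, a list that includes Ash1l, were 15 positive and 11 negative of 26 (median 0.07). Setd2, the trimethylase of H3 lysine 36, had a log2 fold change of −0.50 (SE 0.20; edgeR adjusted p = 0.896, and 0.0212 before adjustment). Its level was 227, 253 and 247 CPM in controls and 197, 178, 161 and 143 CPM in mutants, without overlap. Kdm2a, a demethylase of H3 lysine 36, had 0.54 (SE 0.25). Each gene in these lists that is named for its unadjusted p was picked after its value was seen.

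The last comparison asked whether the genotype change in the members differed from that in all other kept barcodes of the same embryos. Of 12161 genes, 6 (0.0493%) passed, 1 with a more positive change in the members (0.00822%) and 5 with a more negative one (0.0411%); 500 (4.11%) had an unadjusted p under 0.05. The positive gene was Hspa1b: its log2 fold change was 1.41 in the members and −0.64 in the rest, where it was 100, 63.2 and 68.5 CPM in controls and 47.7, 55.5, 49.9 and 46.0 CPM in mutants. The difference was 2.01 (SE 0.31; edgeR adjusted p = 1.3e-07). Mutants were thus above controls in the members and below them in the rest, in every embryo. Against the migrating neuron rule barcodes alone the difference was 1.53 and did not pass (edgeR adjusted p = 0.377), and without the embryo as a block it was 2.01 (edgeR adjusted p = 0.0205). In UMIs, the members held 18, 10 and 12 Hspa1b transcripts in controls and 35, 23, 18 and 25 in mutants, from 68 of 481 barcodes, 7 to 13 per embryo. The richest barcode held 10 of the 35 in mutant 10 and 8 of the 23 in mutant 11. Hspa1a had a difference of 0.42 (SE 0.19; edgeR adjusted p = 1.0).

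The 5 more negative genes were 4 haemoglobin genes and Nefl. Hbb-bs had a difference of −1.41, Hbb-bt −1.69, Hba-a1 −1.89 and Hba-a2 −2.58. These counts sat in a few barcodes: 1 barcode of control 16 held 1024 of the 2237 Hbb-bs UMIs of all members (45.8%). Without the barcodes of 10 or more haemoglobin UMIs, and with a robust estimate of the spread, none of the 4 passed. They are near-identical in pairs and uncertain as single genes. Nefl had a difference of −1.54 (SE 0.31; edgeR adjusted p = 0.00154), with 23 of its 131 UMIs in 1 barcode of control 16. Without control 16 it was −1.24 and without control 15 −1.33, and it did not pass in either case (edgeR adjusted p = 0.940 and 0.209). It was also not called without mutant 17 (edgeR adjusted p = 0.0616), without the embryo as a block, at a marker sum of at least 4, or against the migrating neuron rule barcodes.

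**Figure D5:**
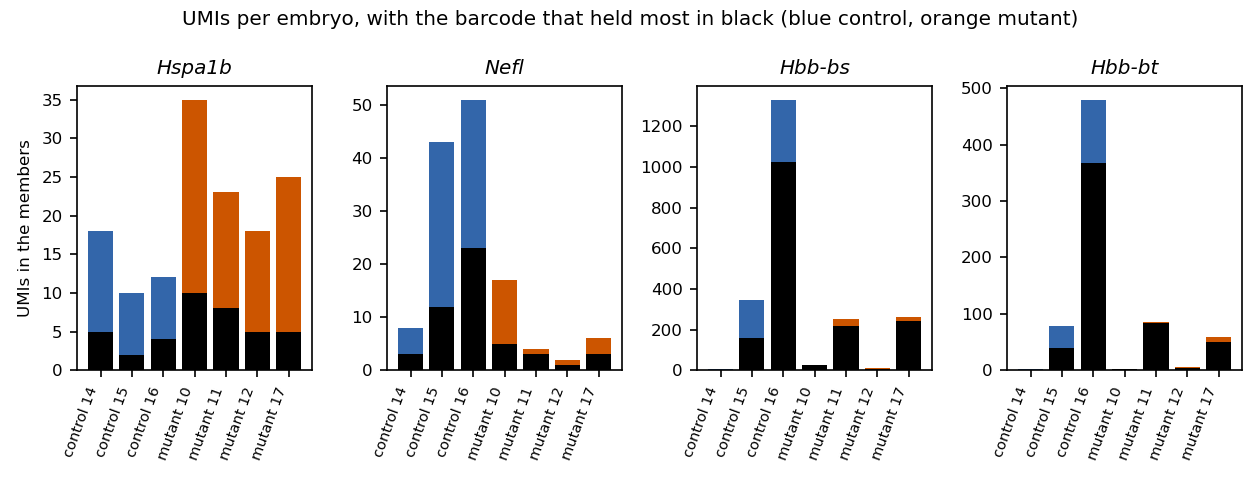
UMIs in the members of each embryo (x axis) for 4 genes whose genotype change differed between members and rest (y axis from 0, own scale per gene); black marks the UMIs of the single richest barcode, blue (control) and orange (mutant) the other barcodes. For Hbb-bs 1024 of 1332 UMIs in control 16 come from 1 barcode; for Hspa1b the richest barcode holds 10 of 35 in mutant 10 and 8 of 23 in mutant 11.

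Below the threshold followed Wdr7 (difference 1.56, SE 0.38; edgeR adjusted p = 0.0662), Tspan5, a tetraspanin (0.73; 0.322), Mapkapk5, a kinase (1.49; 0.429), and 2 genes of few UMIs. The endothelial and pericyte gene Igfbp7 had 12 UMIs in all members, 10 of them in 1 barcode of mutant 11. Cenpf, a mitotic gene, had 27 UMIs over members, 1, 1 and 2 in controls and 5, 6, 8 and 4 in mutants. Wdr7 in the rest was 84.5, 71.5 and 61.0 CPM in controls and 77.4, 72.5, 56.5 and 65.7 CPM in mutants, with overlap.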

How the data were processed

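Cortices of 7 embryos were profiled by Seq-Well, 1 library each. The authors deposited 1 table of raw UMI counts per library, aligned with STAR to mm10 per the submitters' processing notes; the sources used here do not give versions, annotation or barcode calling. Groups came from the sample titles and genotype labels. All rows had a gene name, and depth was 7083225 to 11859209 UMIs per library.

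Barcodes were kept and chosen as given above. Doublets were not called; members of more than 2 times the median depth were left out as an alternative. Counts were summed per embryo and tested with edgeR 4.0.16 (R 4.3.3; TMM, filterByExpr, quasi-likelihood, Benjamini-Hochberg at 0.05), with DESeq2 1.42.0 as an alternative. The difference of genotype changes was tested with the embryo as a fixed term, which pairs the 2 sets of cells of 1 embryo. Single values used exact permutation over embryos, and intervals (Clopper-Pearson, 95%) cover counting error only. The scripts were tested on simulated data.

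The members and gene lists were chosen with earlier results of these data known. Genes named were those of the rule, Ash1l, Spr, Esr1 and Emx1; every gene past the threshold and the 10 (genotype) or 5 (difference of changes) next by p; the 20 highest and 10 lowest ratios at 100 CPM or more; and high members of the lists. Some genes that this choice covers are not reported here. List genes named for an unadjusted p or for their part in the lineage were added. Of the listed genes Zbtb20 and Flrt3 were not matched. Coordinates are from GENCODE M21 by symbol. All embryos are of 1 litter.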

Additional observations from a re-analysis of the deposited data

Results flagged for a closer look

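Among 59 values of the 4 mutant embryos examined for an embryo that stood apart from the other 3, 4 did; chance sets apart about 1 in 20 such groups. Mef2c in the members was 324 TMM-scaled CPM in mutant 17, against 93.9 to 133 in the other mutants; controls were 178, 403 and 183. The summed Notch list was lowest in mutant 17 at 581 CPM, against 884 to 904. The summed endothelial and pericyte list was highest in mutant 11 at 127 CPM, against 22.4 to 37.1, with 10 Igfbp7 UMIs in 1 barcode. The summed microglial list was 12.1 CPM in mutant 11 and 0 in the other mutants. No sample was left out for these.

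For 6 genes the genotype change differed between the members and all other kept barcodes, by edgeR's test of that difference, with adjusted p from 9.9e-17 to 0.00154. The differences were 2.01 for Hspa1b, −1.54 for Nefl, −1.41 for Hbb-bs, −1.69 for Hbb-bt, −2.58 for Hba-a2 and −1.89 for Hba-a1 (log2).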

How the results depend on the processing

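The share difference turned to +0.218 points with at least 1000 detected genes; over embryos left out in turn it ran from −0.42 to +0.0407. Genotype calls in the members were 3 higher and 5 lower without the filter on low counts, and 0 to 4 higher and 0 to 2 lower with an embryo left out (4 and 2 without control 14), and 0 under every other alternative run, the robust estimate of the spread included. For the difference between members and rest, 1 gene was more positive and 5 more negative. With no replicate block it was 1 and 0; with a marker sum of at least 4, 2 and 4; against the migrating neuron rule barcodes 0 and 0; without barcodes of 10 or more haemoglobin UMIs, without the dominant genes' counts, and with the robust estimate, 1 and 1 each. With an embryo left out it was 1 to 2 and 0 to 6 (1 and 0 without control 16). The 3 alternatives that each gave 1 and 1 were chosen after seeing the data. No paired analysis was possible between genotypes because mutant and control embryos share no replicate number. The median log2 ratio of the 10 lowest genes was −2.32 without very deep members. Signs turned for small changes: Emx1 was −0.0370 at 1000 genes, −0.0128 at a 5% mitochondrial limit, −0.0144 at a marker sum of 4, −0.0517 unfiltered, −0.00782 with DESeq2, −0.00615 without the dominant genes and as low as −0.19 with an embryo left out, up to 0.26; Neurog2 was 0.17 at the 5% limit, 0.0116 at a sum of 2 and between −0.15 and 0.00083 with an embryo left out; Mfng was −0.0203 at 1000 genes, −0.0854 at a sum of 4, −0.0399 without very deep members and from −0.12 to 0.23 with an embryo left out; Hbb-bt was 0.0217 at the 5% limit, 0.23 without very deep members and from −2.38 to 0.46 with an embryo left out. The cause of these turns was not tested. At the members' depth 5880 genes passed the filter on low counts, and genes below it were tested only with the filter left out.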

Other observations

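Of 12 heat shock and protein folding genes at 100 CPM or more, 6 were higher in the members than in the rest in all 7 embryos and 0 lower. Their median log2 ratio was 0.44. Of the 12, 1 reached that level only in the members and 0 only in the rest. Among all genes of that level 18.2% were higher and 16.8% lower, with a median of 0.0403. The list summed to 8815 CPM in the members, 7822 in the radial glia rule barcodes, 7566 in the cycling Eomes barcodes, 6562 in the migrating neuron rule barcodes and 6775 in the rest. Between genotypes 5 of its 14 tested genes had a positive and 9 a negative log2 fold change (median −0.04). Deep layer genes were close to the rest, at 1306 against 1394 CPM in sum.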
